A study of Danio rerio with 18 samples.

Results

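The comparison covers 6 RNA libraries made from whole zebrafish eyes, 3 of opn4 dko and 3 of wild-type fish, out of 18 libraries in the series. The opn4 dko fish carried homozygous TALEN-made alleles of opn4.1 and opn4xb, each with an early stop codon, and the controls were wild-type fish, both of the Tubingen strain and about 1.5 years old. All fish had been entrained to alternating light and dark phases of blue light and were dissected in the light phase. Each replicate was a pool of eyes of 3 fish, so that the spread between replicates is a spread between pools. The other 12 libraries, from anterior and posterior brains of both genotypes, served for a comparison of the genotype effect across tissues. They also entered a fit of all 18 libraries, used as an alternative test of the eye. Whole eyes hold retina, pigment epithelium, lens, cornea, vessels and attached muscle, and in such bulk samples fewer cells of a type cannot be told apart from less RNA per cell.

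Melanopsins are opsins that signal through Gq and phospholipase C and serve non-visual light detection, in mammals chiefly in a small class of retinal ganglion cells and in teleosts also in horizontal, bipolar and amacrine cells. Rods and cones, which carry vision, use another cascade: a light-activated opsin switches on transducin, transducin removes the inhibitory gamma subunit from phosphodiesterase 6, and the fall in cGMP closes a cation channel. MHC class I molecules present peptides to T cells. The peptides are cut by the immunoproteasome, carried by TAP and loaded with the help of tapasin, and in zebrafish several of these genes lie next to each other.

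Reads of both targeted genes were found in every library, and since a transcript with an early stop codon can still be counted, these values do not check the alleles. opn4.1 (ENSDARG00000007553) had 1700, 1650 and 1844 reads in opn4 dko, against 1082, 1752 and 819 in wild-type. In CPM, the counts scaled to a common library size by TMM, this was 302, 379 and 466 CPM in opn4 dko, against 318, 544 and 383 in wild-type. The genotypes overlapped (log2 fold change -0.12, SE 0.23, FDR = 0.993, edgeR quasi-likelihood test). opn4xb (ENSDARG00000103259) had 47, 33 and 34 reads in opn4 dko, against 66, 45 and 57 in wild-type, and every opn4 dko library lay below every wild-type library at 8.36, 7.58 and 8.60 CPM in opn4 dko, against 19.4, 14.0 and 26.7 in wild-type. That difference did not pass the test (log2 fold change -1.28, SE 0.47, FDR = 0.993, edgeR quasi-likelihood test), and the fold change was -1.03 without wild-type replicate 3. The 3 melanopsins that were not targeted had few reads. opn4b (ENSDARG00000053929) had 15.8, 15.4 and 24.5 CPM in opn4 dko, against 15.9, 14.3 and 30.4 in wild-type, opn4a (ENSDARG00000022098) had 4.801, 1.84 and 3.79 CPM in opn4 dko, against 10.6, 5.28 and 0 in wild-type, and opn4xa (ENSDARG00000079129) had 5.33, 1.61 and 2.02 CPM in opn4 dko, against 1.18, 4.66 and 8.89 in wild-type. The genotypes overlapped for each of them, and none passed the test.

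The library named wild-type replicate 3 stood apart from the other 5 before any comparison. The eye libraries held 3958571 to 5717878 counts in opn4 dko and 2186877 to 3286423 in wild-type, and 3 counts amount to 0.525 to 1.37 CPM, depending on the library. At least 1 count was found for 19134 to 20037 genes in opn4 dko, for 19525 and 18971 in wild-type replicates 1 and 2, and for 14577 in replicate 3, which also had the lowest total. With every library brought to the lowest total, the expected number was 18817 to 19373 in opn4 dko, against 19281 and 18717 in wild-type replicates 1 and 2, so that the gap remained at equal totals. Of the 13460 genes with at least 10 counts in each of the other 5 eye libraries, 1134 (8.43%) had no count in wild-type replicate 3, and sampling at its depth would leave 0.0359 genes without one. The same count was 0, 8 and 2 genes for the opn4 dko libraries and 8 and 11 for wild-type replicates 1 and 2. The missing genes were those of low level. Where the median of the other 5 libraries was 1 to 3 CPM, 68.2% of the genes had no count in wild-type replicate 3, against 5.61 to 16.5% in the others. The share was 37.1% at 3 to 10 CPM, 7.27% at 10 to 30 CPM and 0.177% at 30 to 100 CPM, and above 100 CPM no gene was missing. The gap also affected genes of clear level in single libraries: NDUFS6, a complex I subunit, had 132, 110 and 125 reads in opn4 dko, against 113, 111 and 0 in wild-type. DNAJC1, a DnaJ-type co-chaperone, had 227, 255 and 150 reads in opn4 dko, against 110, 111 and 0 in wild-type. The other 8 genes with the most reads elsewhere and none in this library were COQ10B, INTS3, ARL1, TGFBR2, RNF126, anxa1c, zgc:123010 and CTSZ, with 81 to 339 reads in each of the other 5 libraries.

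**Figure D1:**
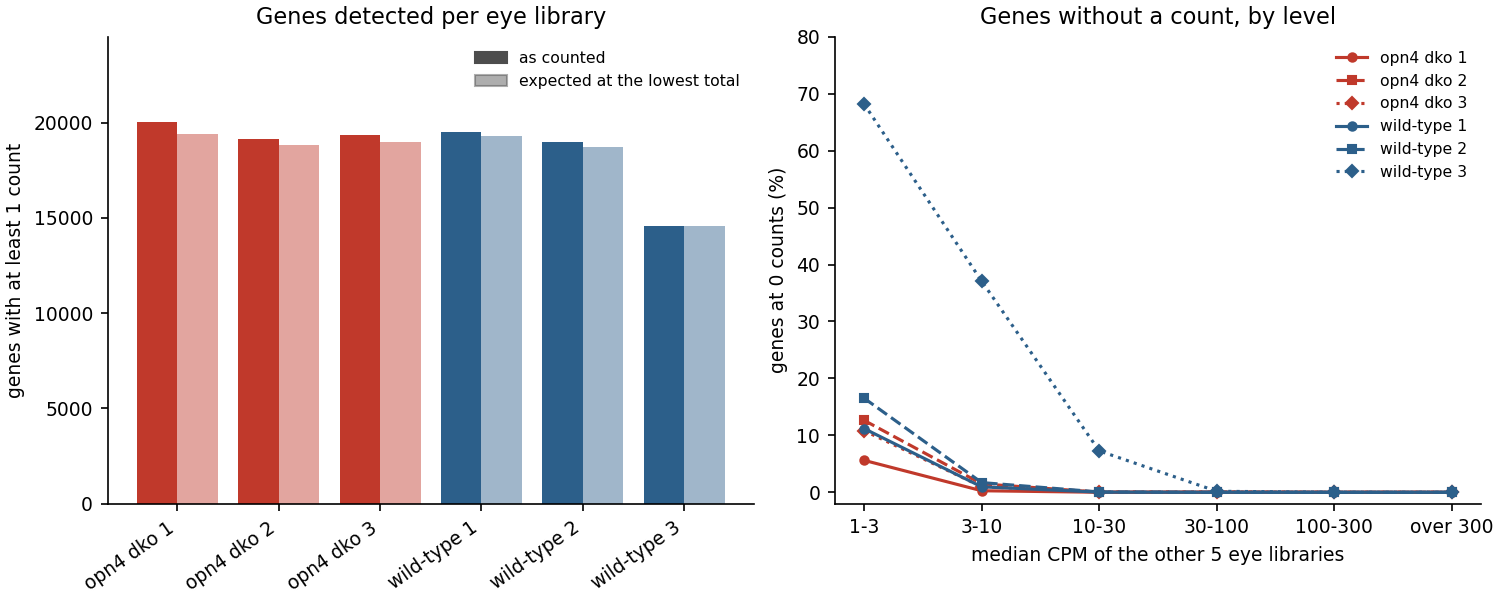
Left: genes with at least 1 count in each eye library (dark bars) and the number expected when each library is reduced to the lowest total (pale bars), opn4 dko in red and wild-type in blue. Right: percentage of genes with 0 counts in a library, by the median CPM of the other 5 libraries. Wild-type replicate 3 held 14577 genes and lacked 68.2% of the genes at 1 to 3 CPM, and its line meets the others above 30 CPM.

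Its effect on the comparison was measured in several ways. The log2 CPM of wild-type replicate 3 correlated with those of the other 5 libraries at r = 0.758 to 0.781 across genes, against 0.892 to 0.935 among the others, which is a description since genes are not replicates. The first principal component held 66.9% of the variance and set this library (182.8) against the rest (-41.8 to -28.5). The biological coefficient of variation was 0.298 among opn4 dko and 0.592 among wild-type replicates, or 0.324 for wild-type replicates 1 and 2 alone. The quality weight that limma gave the library was 0.28, against 0.99 to 1.74 for the others. Of all genes tested it was the lowest of the 6 libraries for 39% and the highest for 27%. What made the library differ was not tested, and below, medians of gene lists are given with all 6 libraries and without this one, and so are most log2 fold changes of single genes that moved by over 1.5 times.

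Abundant markers of eye cell types were found in all 6 libraries, while some of lower level were nearly absent from wild-type replicate 3. POU4F1 (ENSDARG00000005559), of retinal ganglion cells, had 64, 39 and 30 reads in opn4 dko, against 46, 20 and 1 in wild-type. RBPMS2 (ENSDARG00000079578), another marker of these cells, had 345 reads in wild-type replicate 3. Symbols in capitals lack the letter of the zebrafish paralogue, so identifiers are given with them. The rod transducin subunit gnat1 had 3059, 2768 and 3576 CPM in opn4 dko, against 2957, 3773 and 3064 in wild-type, and the cone arrestin arr3a had 5872, 6408 and 6724 CPM in opn4 dko, against 5603, 7866 and 7614 in wild-type. Lens (BFSP1, a beaded filament protein), bipolar cell (cabp5a), horizontal and amacrine cell (GAD1) and pigment epithelium markers (rpe65a) were found in every library. BFSP1 (ENSDARG00000074919) had 1436, 1189 and 1481 CPM in opn4 dko, against 1523, 1254 and 1733 in wild-type. Of the forebrain genes, EMX1 had at most 1.55 CPM and avp at most 0.356 CPM in any library. No count fell on the 13 mitochondrially encoded genes in any eye library. PDE6C, a cone phosphodiesterase subunit, and the lens marker crygm2d12 were also without a count.

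Across the eye transcriptome, few genes passed the test for a difference between the genotypes. Of 15773 genes with enough reads to be tested, 4 passed an FDR of 0.05 (0.0254% of those tested, edgeR quasi-likelihood test with Benjamini-Hochberg adjustment). They were 1 gene higher in opn4 dko (0.00634%), the MHC class I gene mhc1uba, and 3 genes lower (0.019%), the phosphodiesterase subunit gene pde6gb and the uncharacterised si:ch211-63p21.1 and si:dkeyp-1h4.8. All 4 were also called without wild-type replicate 3, when 8 of 16807 tested genes passed (0.0476%), 4 higher and 4 lower. At an unadjusted p below 0.05 there were 675 genes, 306 higher (1.94%) and 369 lower (2.34%), which is 4.28% of those tested. These shares are the ones to set beside the counts of list members at that p given below. Without wild-type replicate 3, 1040 of 16807 genes had an unadjusted p below 0.05 (6.19%). Of the 15773 genes tested with 6 libraries, 463 were then higher and 489 lower. Every opn4 dko library lay above every wild-type library for 1138 genes (7.21%) and below for 841 (5.33%). The median log2 fold change was 0.03 over all genes (0.00 without wild-type replicate 3), the median absolute value was 0.32, and 1647 genes (10.4%) exceeded an absolute value of 1. It was positive for 8358 genes (53.0%), the share to set beside the counts of positive list members given below. The median SE was 0.46, and 0.39 without wild-type replicate 3. The edgeR exact test called 18 genes and DESeq2 30, and both called 16 genes together, 6 higher and 10 lower, among them all 4.

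**Figure D2:**
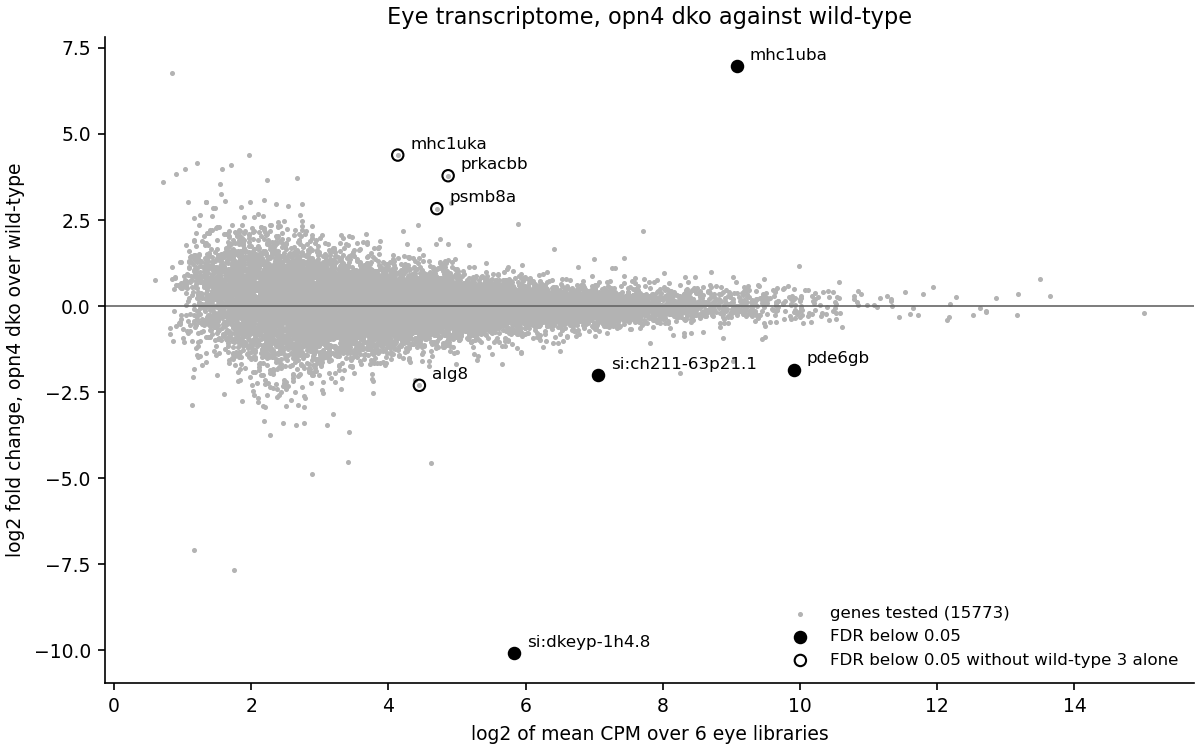
Log2 fold change of opn4 dko over wild-type (y axis) against the log2 of the mean CPM (x axis) for the 15773 genes tested in the eye. Filled points mark the 4 genes past an FDR of 0.05 with all 6 libraries, and open circles the 4 genes that passed only without wild-type replicate 3. mhc1uba lies at 6.97 and pde6gb at -1.84, while the cloud of other genes is centred at 0.03.

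The one gene called higher in opn4 dko was mhc1uba (ENSDARG00000075963), an MHC class I heavy chain gene. It had 5567, 5541 and 3814 reads in opn4 dko, against 23, 30 and 21 in wild-type. On the CPM scale the level was 1076 ± 171 CPM in opn4 dko and 8.64 ± 1.64 in wild-type (SD, n = 3 pools each), so that all opn4 dko libraries were far above all wild-type libraries (log2 fold change 6.97, SE 0.25, FDR = 3.19e-07, edgeR quasi-likelihood test). The fold change was 7.06 without wild-type replicate 3, and lay between 6.82 and 7.06 as each library was left out. Of the genes called lower, si:dkeyp-1h4.8 (ENSDARG00000092833) was almost without reads in opn4 dko, with 0, 1 and 0 reads in opn4 dko, against 266, 428 and 282 in wild-type. With a single read in opn4 dko, the pooled rate in wild-type over that in opn4 dko was 1553 (exact 95% interval 278.0 to 61389, covering counting error only), and it passed the test (FDR = 2.31e-05, edgeR quasi-likelihood test). No function of it is given in the sources used here. si:ch211-63p21.1 (ENSDARG00000105450), also without a known function here, had 227, 214 and 280 reads in opn4 dko, against 672, 740 and 454 in wild-type, or 53.5 ± 15.7 CPM in opn4 dko and 213 ± 16.1 in wild-type (SD, n = 3 pools each). The genotypes did not overlap (log2 fold change -1.999, SE 0.23, FDR = 0.0162, edgeR quasi-likelihood test), but the call was lost when opn4 dko replicate 1 or 2 or wild-type replicate 1 or 2 was left out (FDR = 0.0565 to 0.201).

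The remaining gene, pde6gb (ENSDARG00000101984), encodes an inhibitory gamma subunit of the phosphodiesterase of rods. It had 1826, 2006 and 1876 reads in opn4 dko, against 4552, 5119 and 3403 in wild-type. The level was 420.1 ± 82.9 CPM in opn4 dko and 1507 ± 146 in wild-type (SD, n = 3 pools each), with all opn4 dko libraries below all wild-type libraries (log2 fold change -1.84, SE 0.19, FDR = 0.00602, edgeR quasi-likelihood test). The fold change was -1.80 without wild-type replicate 3 (FDR = 0.00562), and the call was lost without opn4 dko replicate 2 (FDR = 0.0525) or wild-type replicate 2 (FDR = 0.0663). It was the only member of the rod phototransduction list to pass the test.

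Without wild-type replicate 3 another 4 genes passed, which with all 6 libraries had an FDR between 0.0508 and 0.159. psmb8a (ENSDARG00000001303), a catalytic subunit of the immunoproteasome, had 225, 238 and 168 reads in opn4 dko, against 16, 19 and 19 in wild-type. mhc1uka (ENSDARG00000092731), a further MHC class I heavy chain gene, had 229, 107 and 141 reads in opn4 dko, against 2, 10 and 2 in wild-type. In both genes each opn4 dko library held more reads than all wild-type libraries together. The log2 fold changes were 2.83 (SE 0.39, FDR = 0.0508, and 0.00562 without wild-type replicate 3) and 4.39 (SE 0.62, FDR = 0.0600 and 0.0157, edgeR quasi-likelihood test). prkacbb (ENSDARG00000059125), a catalytic subunit of the cAMP-dependent protein kinase, had 224, 236 and 275 reads in opn4 dko, against 3, 18 and 12 in wild-type (log2 fold change 3.79, SE 0.56, FDR = 0.0748 with 6 libraries and 0.0157 without wild-type replicate 3, edgeR quasi-likelihood test). alg8 (ENSDARG00000044627), a glucosyltransferase of N-glycan assembly, had a fold change of the other sign. Its counts were 34, 37 and 30 reads in opn4 dko, against 145, 100 and 76 in wild-type (log2 fold change -2.30, SE 0.38, FDR = 0.159 with 6 libraries and 0.0377 without wild-type replicate 3, edgeR quasi-likelihood test). The exact test and DESeq2 called all 4 with 6 libraries.

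**Figure D3:**
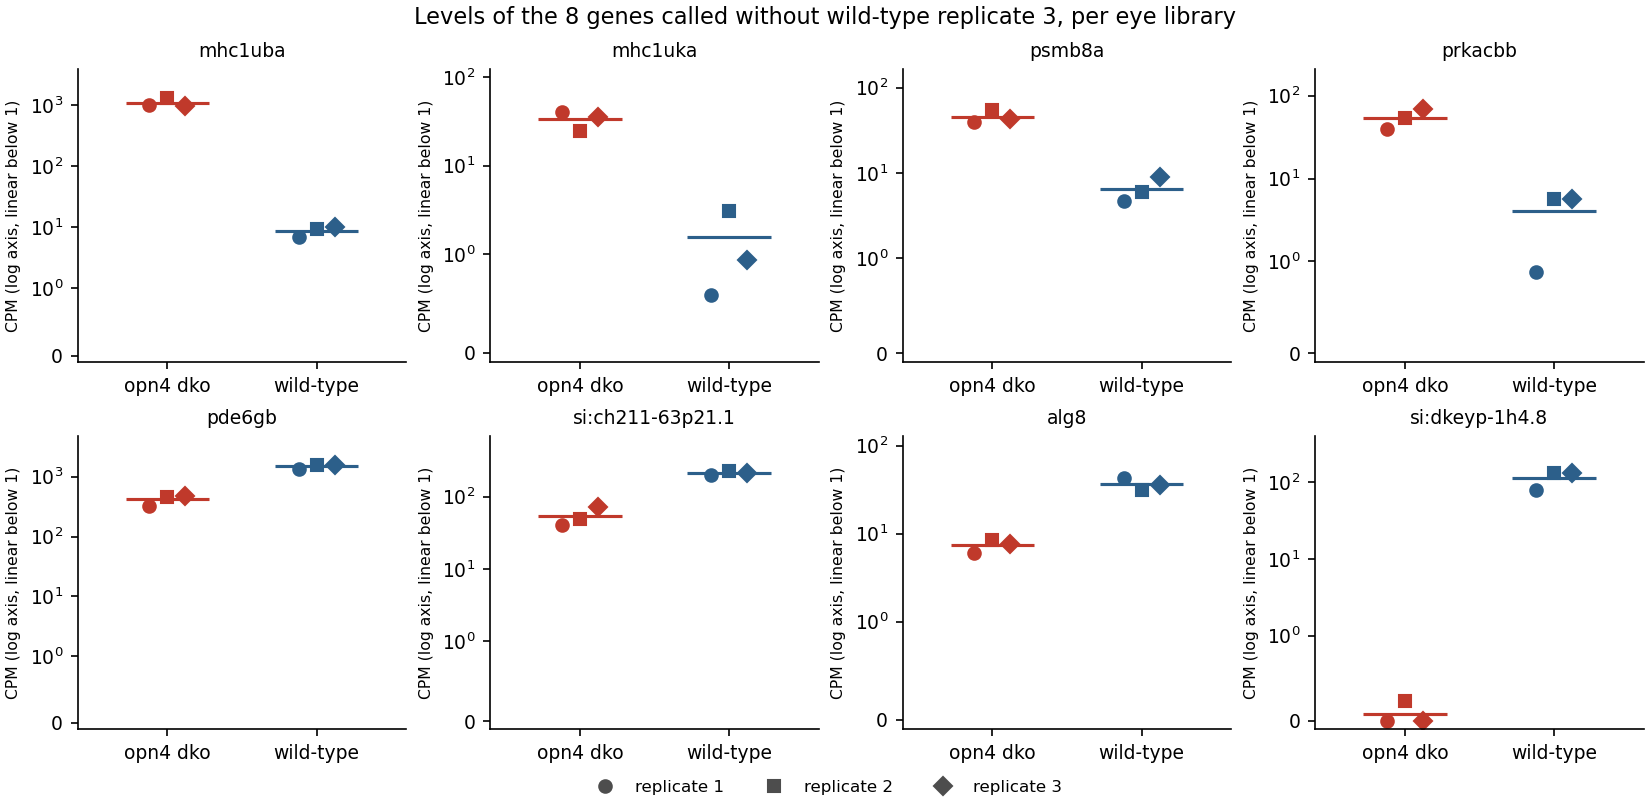
CPM (y axis, log scale above 1 and linear below) of the 8 genes called without wild-type replicate 3, for each opn4 dko library (left, red) and wild-type library (right, blue). Symbols mark replicates 1 to 3 and lines the means of 3 pools. The genotypes do not overlap in any of the 8 genes, which were chosen by a test on these libraries. si:dkeyp-1h4.8 has a single read in the 3 opn4 dko libraries.

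Because 3 of these 8 genes belong to antigen presentation, the genes next to mhc1uba were read in order, a choice made after their values were seen. The order is that of the RefSeq gene table of assembly GRCz12tu, which is not the build of the counts, so no coordinates are given. mhc1uba is flanked by mhc1uka 2 genes to one side and by psmb8a 3 genes to the other. psmb9a, another immunoproteasome subunit, is 6 genes away and had 143, 82 and 66 reads in opn4 dko, against 37, 13 and 3 in wild-type, with no overlap (log2 fold change 1.86, SE 0.66, FDR = 0.993, edgeR quasi-likelihood test). daxx, a histone chaperone gene, is 4 genes away and had 116, 90 and 85 reads in opn4 dko, against 27, 20 and 0 in wild-type (log2 fold change 2.095, SE 0.82, and 1.56 without wild-type replicate 3). All opn4 dko libraries of daxx lay above those of wild-type, but it did not pass the test with or without that library. flot1a, a flotillin gene, had 200, 215 and 170 reads in opn4 dko, against 73, 91 and 22 in wild-type (log2 fold change 1.08, SE 0.38), and znf384a, a zinc finger gene, had 285, 191 and 249 reads in opn4 dko, against 89, 96 and 90 in wild-type (log2 fold change 0.69, SE 0.29, and 0.91 without wild-type replicate 3). hsd17b8, a hydroxysteroid dehydrogenase gene, had 31, 24 and 27 reads in opn4 dko, against 1, 11 and 0 in wild-type (log2 fold change 2.18, SE 1.25). On the CPM scale all 3 were above wild-type in every opn4 dko library, and none passed the test. The genotypes overlapped for zbtb22b (log2 fold change 1.28, SE 1.18, and 0.75 without wild-type replicate 3), the proteasome subunit gene psmb12 (0.64, SE 0.56, and 1.09 without wild-type replicate 3), the tapasin gene tapbp.2 (0.49, SE 0.59), tap2a, a subunit of the peptide transporter (0.23, SE 0.41), brd2a, a chromatin reader (-0.01, SE 0.22), and col11a2, a collagen gene (-0.56, SE 0.58). tapbp.1 and psmb13a had no reads in any eye library. Of the 32 tested members of the MHC class I and antigen processing list, mhc1uba alone passed the test, and the median was 0.21 (0.18 without wild-type replicate 3). In this list 5 had all opn4 dko libraries above all wild-type libraries (15.6%, beside 7.21% of all genes) and 1 below (3.125%, beside 5.33%). The list was written with earlier results of these data known and holds mhc1uba itself, so these shares are only a description. The light chain genes of MHC class I, b2m and b2ml, had overlapping levels: b2m had 698, 959 and 714 CPM in opn4 dko, against 805, 591 and 672 in wild-type, and b2ml 784, 856 and 866 CPM in opn4 dko, against 920.4, 730.2 and 653 in wild-type. mhc1zea, a class I gene of another lineage, had 9.25, 9.19 and 9.86 CPM in opn4 dko, against 16.2, 12.4 and 32.8 in wild-type (log2 fold change -1.10, SE 0.50, and -0.60 without wild-type replicate 3), below wild-type in all libraries but not past the test. Class I genes form a multigene family of similar copies, and only reads with a mapping quality of at least 20 were counted, so how reads were split among these copies is uncertain.

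**Figure D4:**
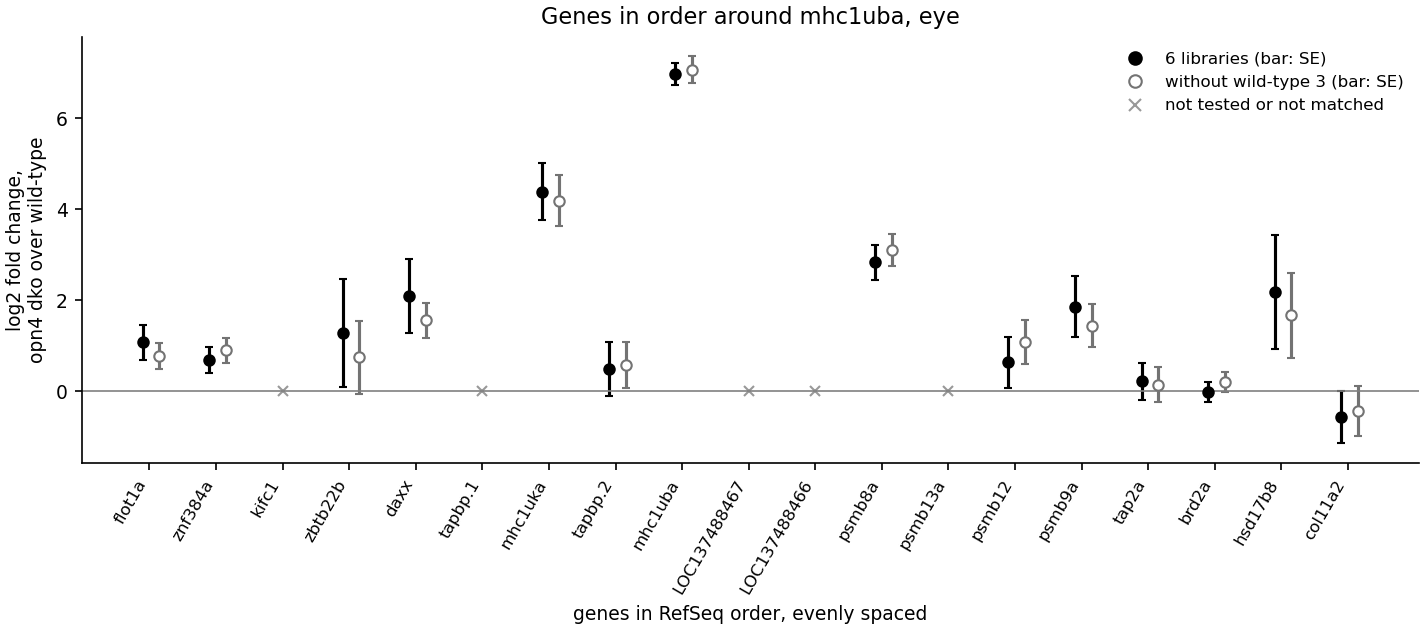
Log2 fold change of opn4 dko over wild-type in the eye (y axis, bars are SE) for genes in their RefSeq order around mhc1uba, evenly spaced. Filled points use all 6 libraries, open points leave out wild-type replicate 3, and crosses mark genes not tested or without a match. mhc1uba (6.97), mhc1uka (4.39) and psmb8a (2.83) have the highest values, followed by hsd17b8 (2.18), daxx (2.095) and psmb9a (1.86), while tap2a (0.23) and brd2a (-0.01) lie near 0.

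The genes called by the exact test and DESeq2, but not by the quasi-likelihood test, are given next. Among those higher in opn4 dko was si:dkey-238c7.13 (ENSDARG00000092191), with 1463, 2557 and 737 reads in opn4 dko, against 227, 212 and 204 in wild-type (log2 fold change 2.19, SE 0.38, FDR = 0.223, edgeR quasi-likelihood test). pfkfb1 (ENSDARG00000037140), a kinase and phosphatase that sets the level of an activator of glycolysis, had 491, 160 and 172 reads in opn4 dko, against 68, 49 and 30 in wild-type (log2 fold change 1.76, SE 0.38, FDR 0.688, edgeR), where opn4 dko replicate 1 was highest. Among those lower was tcnbb (ENSDARG00000091996), a vitamin B12 carrier of the transcobalamin family, with 6, 21 and 0 reads in opn4 dko, against 155, 139 and 114 in wild-type (log2 fold change -4.57, SE 0.80, FDR = 0.223, edgeR quasi-likelihood test). Its wild-type libraries all held at least 114 reads, while opn4 dko replicate 3 held none. tmem94 (ENSDARG00000074506), a membrane protein gene, had 112, 120 and 94 reads in opn4 dko, against 192, 221 and 225 in wild-type (log2 fold change -1.69, SE 0.30, FDR 0.241, edgeR). cspg4bb (ENSDARG00000075600), a chondroitin sulphate proteoglycan gene, had 121, 104 and 117 reads in opn4 dko, against 201, 173 and 184 in wild-type (log2 fold change -1.41, SE 0.29, FDR 0.661, edgeR). si:dkey-31n5.4 (ENSDARG00000097738) had 355, 229 and 156 reads in opn4 dko, against 606, 329 and 228 in wild-type (log2 fold change -1.32, SE 0.28, FDR 0.688, edgeR). In all 6 of these genes, set on the CPM scale, the genotypes did not overlap (beside 7.21% above and 5.33% below of all genes). They were chosen by tests on the same libraries, so this is not a separate result. MPP4 (ENSDARG00000009386), a scaffold protein of photoreceptor synapses in mammals, had 5, 7 and 0 reads in opn4 dko, against 31, 38 and 87 in wild-type, and ENSDARG00000098844, an unnamed gene, had 7, 0 and 0 reads in opn4 dko, against 40, 57 and 29 in wild-type, both also lower on the CPM scale in every opn4 dko library. The exact test also called si:ch211-285c6.3 (0 reads in each opn4 dko library, against 32, 15 and 13 in wild-type) and si:dkeyp-86b9.5 (0 reads, against 11, 12 and 14), which are at least 10.2-fold and 6.82-fold lower in opn4 dko when opn4 dko is set to 3 counts per library. DESeq2 gave no adjusted p for either.

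DESeq2 alone, or with the fit of all 18 libraries, called further genes of higher level and smaller change. The melanosome matrix gene pmela had 280.2, 201 and 171 CPM in opn4 dko, against 122.7, 103 and 73.5 in wild-type (log2 fold change 1.12, SE 0.25), and HSPA8 (ENSDARG00000068992), the constitutive HSC70 chaperone, had 1694, 2126 and 1789 CPM in opn4 dko, against 1170.1, 1289 and 1017 in wild-type (log2 fold change 0.69, SE 0.16). fthl27, a ferritin heavy chain gene, had 159, 153 and 135 CPM in opn4 dko, against 96.5, 57.1 and 50.5 in wild-type (log2 fold change 1.13, SE 0.26). Each of these 3 was higher in every opn4 dko library. INTS4 (ENSDARG00000102953), a subunit of the Integrator complex, had 62.0, 87.3 and 72.1 CPM in opn4 dko, against 30.0, 37.6 and 32.3 in wild-type (log2 fold change 1.15, SE 0.25), and si:dkey-248g15.3 had 635, 769 and 600.4 CPM in opn4 dko, against 311, 448 and 364 in wild-type (log2 fold change 0.84, SE 0.19). Lower in every opn4 dko library were SLC4A4 (ENSDARG00000044808), a sodium bicarbonate cotransporter, with 237, 248 and 267 CPM in opn4 dko, against 446, 380.5 and 464 in wild-type (log2 fold change -0.78, SE 0.16), and TACC1 (ENSDARG00000073753), a centrosomal protein gene, with 62.9, 70.5 and 71.6 CPM in opn4 dko, against 113, 132 and 132 in wild-type (log2 fold change -0.88, SE 0.19). RBM26 (ENSDARG00000104130), an RNA binding protein gene, had 45.9, 26.2 and 33.1 CPM in opn4 dko, against 70, 94.7 and 82.4 in wild-type (log2 fold change -1.23, SE 0.27), and rnasekb, encoding a small subunit of the V-ATPase, had 58.9, 58.4 and 68.8 CPM in opn4 dko, against 104, 119 and 149.8 in wild-type (log2 fold change -1.0, SE 0.21). opn1lw2, a long-wavelength cone opsin, had 338, 495 and 583 CPM in opn4 dko, against 693, 999.8 and 1068 in wild-type (log2 fold change -0.96, SE 0.23). None of these passed the quasi-likelihood test (FDR between 0.688 and 0.909, edgeR), and fits that share a spread over all 18 libraries rest on brain libraries as well. In that fit 34 genes passed, among them the phosphofructokinase gene PFKL (ENSDARG00000099755) with 90.5, 60.9 and 89.8 CPM in opn4 dko, against 45.6, 48.5 and 31.4 in wild-type, the chaperone HYOU1 (ENSDARG00000013670) with 40.4, 51.2 and 45.02 CPM in opn4 dko, against 23.2, 20.5 and 7.96 in wild-type, the neurofilament gene NEFL (ENSDARG00000012426) with 18.3, 17.2 and 18.5 CPM in opn4 dko, against 6.76, 6.21 and 4.21 in wild-type, and the muscle calcium channel gene RYR1 (ENSDARG00000023797) with 8.18, 3.22 and 5.06 CPM in opn4 dko, against 16.8, 15.8 and 32.8 in wild-type. ESR2 (ENSDARG00000016454), an oestrogen receptor gene, had too few reads for the fit of the eye alone, with 11, 26 and 7 reads in opn4 dko, against 0, 0 and 0 in wild-type, which is at least 3.01-fold higher in opn4 dko when wild-type is set to 3 counts per library.

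Other genes that DESeq2 or the fit of all 18 libraries called lay between these in level. appa, an amyloid precursor protein gene, had 369, 359 and 366 CPM in opn4 dko, against 559, 496 and 601 in wild-type (log2 fold change -0.60, SE 0.16), with the opn4 dko libraries close to each other and all lower. mettl1, a tRNA methyltransferase gene, had 8.001, 6.66 and 8.35 CPM in opn4 dko, against 15.9, 35.4 and 51.0 in wild-type (log2 fold change -2.14, SE 0.48), and acap3b, an ARF GTPase-activating protein gene, had 69.7, 74.9 and 82.2 CPM in opn4 dko, against 125, 109 and 179 in wild-type (log2 fold change -0.86, SE 0.23). KIAA0513 (ENSDARG00000041599) had 49.1, 51.0 and 40.2 CPM in opn4 dko, against 89.7, 74.5 and 154 in wild-type (log2 fold change -1.18, SE 0.29), and NSMF (ENSDARG00000101234), a neuronal signalling protein gene, had 22.1, 30.6 and 27.8 CPM in opn4 dko, against 45, 50.3 and 69.3 in wild-type (log2 fold change -1.03, SE 0.29). For these 5 genes every opn4 dko library was lower, and wild-type replicate 3 was the highest of the 6. slc27a1b, a fatty acid transporter gene, had 11.02, 8.96 and 5.31 CPM in opn4 dko, against 19.1, 21.12 and 33.2 in wild-type (log2 fold change -1.52, SE 0.47), again with wild-type replicate 3 the highest. Higher in every opn4 dko library were palm2akap2, with 193, 176 and 260.3 CPM in opn4 dko, against 111, 119 and 58.5 in wild-type (log2 fold change 1.12, SE 0.27), and SOX4 (ENSDARG00000098834), a transcription factor of progenitor cells, with 41.1, 31.5 and 19.0 CPM in opn4 dko, against 9.12, 9.01 and 1.40 in wild-type (log2 fold change 2.19, SE 0.60). In both, wild-type replicate 3 was the lowest of the 6. si:ch211-145n14.3 had 109, 121 and 122 CPM in opn4 dko, against 67.7, 69.3 and 65.5 in wild-type (log2 fold change 0.80, SE 0.19), with little spread within either genotype. hpxb, a hemopexin gene, had 10.1, 70.5 and 80.4 CPM in opn4 dko, against 10.9, 8.08 and 0.468 in wild-type (log2 fold change 2.98, SE 0.83), where opn4 dko replicate 1 lay below wild-type replicate 1. None of these passed the quasi-likelihood test of the eye libraries.

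Rod genes as a group had a small negative median. Of 21 rod phototransduction genes tested, pde6gb passed, 3 had positive log2 fold changes, and the median was -0.26 (-0.21 without wild-type replicate 3), beside 0.03 for all genes. 3 members (14.3%, beside 5.33% of all genes) had all opn4 dko libraries below all wild-type libraries and 0 above. The rod list made up 4.99, 3.62 and 4.92% of the counts in opn4 dko, against 5.35, 5.26 and 5.36% in wild-type. The outer segment rim protein gene PRPH2 (ENSDARG00000014840) had 613, 432 and 579.5 CPM in opn4 dko, against 485, 462 and 547 in wild-type (log2 fold change 0.12, SE 0.18), and gnat1 a log2 fold change of -0.06 (SE 0.16). The sign of the list median was the same under every scaling, at -0.59 with actb1 library sizes, a scaling that moved the median of all genes to -0.31.

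Cone genes had log2 fold changes of both signs. The 31 tested members had a median log2 fold change of -0.02 (-0.04 without wild-type replicate 3), and none passed the test. At an unadjusted p below 0.05, 6 were higher and 5 lower with 6 libraries, where all genes had 1.94% higher and 2.34% lower. Without wild-type replicate 3 there were 3 and 3, beside 463 higher and 489 lower of 15773 genes. Without overlap, 4 were above (12.9%, beside 7.21% of all genes) and 5 below (16.1%, beside 5.33%). guca1a and guca1d encode proteins that switch on guanylate cyclase when calcium falls, and their log2 fold changes had opposite signs. guca1a had 313, 262 and 338 CPM in opn4 dko, against 207, 181 and 154 in wild-type (log2 fold change 0.75, SE 0.19). guca1d had 29.9, 21.14 and 29.9 CPM in opn4 dko, against 49.1, 57.8 and 78.6 in wild-type (log2 fold change -1.19, SE 0.29). In both, the genotypes did not overlap. The inhibitory cone phosphodiesterase subunit gene pde6ha had 11608, 9926 and 9647 CPM in opn4 dko, against 7506, 8805 and 8059.6 in wild-type (log2 fold change 0.36, SE 0.15), again without overlap, and arr3a had a log2 fold change of -0.15 (SE 0.17). The cone list took 3.8, 3.45 and 3.84% of the counts in opn4 dko, against 3.26, 3.92 and 3.84% in wild-type.

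Genes of the pigment epithelium and of retinoid handling showed no common direction. In the visual cycle list (30 tested, 0 called) the median was 0.02 (0.02 without wild-type replicate 3). At an unadjusted p below 0.05, 2 were higher and 1 lower (1 and 1 without wild-type replicate 3). rpe65a, the isomerase that remakes the chromophore, had 1121, 716 and 777 CPM in opn4 dko, against 1127, 1335 and 1248 in wild-type (log2 fold change -0.50, SE 0.19), with all opn4 dko libraries lower. rbp3, the retinoid carrier between photoreceptors and pigment epithelium, had 4022, 2984 and 3102 CPM in opn4 dko, against 2185, 2925 and 2452 in wild-type (log2 fold change 0.42, SE 0.18), with all opn4 dko libraries higher. Neither passed the test. Among 13 pigment genes the median was -0.06 (0.07 without wild-type replicate 3), which changed sign without that library, and pmela was the one member at an unadjusted p below 0.05. TYRP1 (ENSDARG00000056151), an enzyme of melanin synthesis, had 298, 217 and 194 CPM in opn4 dko, against 269, 176 and 144 in wild-type. RGR (ENSDARG00000054890), an opsin of the pigment epithelium, had 93.0, 74.0 and 74.9 CPM in opn4 dko, against 88.0, 98.8 and 172 in wild-type (log2 fold change -0.56, SE 0.27, and -0.21 without wild-type replicate 3), where wild-type replicate 3 was the highest, and the 16 tested non-visual opsins had a median of -0.02 (-0.17 without wild-type replicate 3). The 7 tested genes of the melanopsin cascade, which couples through Gq to phospholipase C and TRP channels, had a median of -0.26 (-0.28 without wild-type replicate 3), none called and 0 higher and 0 lower at an unadjusted p below 0.05. TRPC7 (ENSDARG00000079469) had 56.0, 50.3 and 93.1 CPM in opn4 dko, against 65.0, 95.05 and 116 in wild-type (log2 fold change -0.47, SE 0.30, and -0.27 without wild-type replicate 3), with overlap.

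Lens values depended on wild-type replicate 3. The 29 tested crystallins had a median log2 fold change of -0.21 (0.08 without wild-type replicate 3), so that the sign turned without it. None passed the test. At an unadjusted p below 0.05, 0 were higher and 1 lower (1 and 0 without wild-type replicate 3). Crystallins took 6.22, 5.35 and 4.89% of the counts in opn4 dko, against 4.35, 5.86 and 7.77% in wild-type, where replicate 3 was highest of the 6. CRYBB2 (ENSDARG00000053512), a beta crystallin, had 10408, 6912 and 7688 CPM in opn4 dko, against 5225, 10509 and 14142 in wild-type (log2 fold change -0.26, SE 0.30, and 0.08 without wild-type replicate 3). CRYGS (ENSDARG00000042992), a gamma crystallin, had 16342, 13938 and 12056 CPM in opn4 dko, against 9813, 11135 and 13836 in wild-type (log2 fold change 0.28, SE 0.17, and 0.43 without wild-type replicate 3). Both overlapped between genotypes. crygm1, a gamma M crystallin, had 65.8, 125 and 185 CPM in opn4 dko, against 25.6, 737 and 694 in wild-type (log2 fold change -1.96, SE 0.82), with wild-type replicate 1 below all opn4 dko libraries and the other two wild-type libraries above them. Other lens fibre genes had a median of 0.01 (0.17 without wild-type replicate 3) over 17 members.

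Among inner retinal cell types no marker passed the test. Bipolar cell genes (16 tested) had a median of -0.02 (-0.16 without wild-type replicate 3), amacrine and horizontal cell genes (20) of 0.03 (-0.02 without wild-type replicate 3), and retinal ganglion cell genes (12) of -0.01 (-0.12 without wild-type replicate 3). TRPM1 (ENSDARG00000011259), the channel of ON bipolar cells in mammals, had 174, 202 and 161 CPM in opn4 dko, against 137, 154 and 116 in wild-type (log2 fold change 0.40, SE 0.19), without overlap. GAD1 (ENSDARG00000027419), an enzyme of GABA synthesis, had 803, 772 and 792 CPM in opn4 dko, against 641, 744 and 612 in wild-type (log2 fold change 0.25, SE 0.15), also without overlap. NEFL, the ganglion cell gene of lowest p, was higher in all opn4 dko libraries (log2 fold change 1.64, SE 0.50), and thy1 had 7.29, 8.96 and 4.05 CPM in opn4 dko, against 27.4, 8.70 and 18.7 in wild-type (log2 fold change -1.43, SE 0.59), with overlap. Muller glia genes had a median of 0.28 (0.23 without wild-type replicate 3) over 14 members, 11 of them positive, and -0.16 with actb1 library sizes, which is 0.15 above all genes on that scale. vim, an intermediate filament gene, had 857, 630.1 and 696 CPM in opn4 dko, against 471, 397 and 584 in wild-type (log2 fold change 0.59, SE 0.19), and apoeb, a lipid carrier of glia and macrophages, had 2301, 2305 and 1697 CPM in opn4 dko, against 1705, 1623 and 1359.6 in wild-type (log2 fold change 0.43, SE 0.17). The genotypes did not overlap for vim and overlapped for apoeb, where wild-type replicate 1 lay just above opn4 dko replicate 3. SLC1A2 (ENSDARG00000052138), the member of lowest p with a negative log2 fold change, also overlapped between genotypes. It had 113, 116 and 175 CPM in opn4 dko, against 140, 205 and 253 in wild-type (log2 fold change -0.56, SE 0.26, and -0.36 without wild-type replicate 3).

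The list with the narrowest spread was that of cytosolic ribosomal proteins, the protein part of the ribosome. Of 76 tested genes, 74 had positive log2 fold changes, with a median of 0.41 (0.39 without wild-type replicate 3) and quartiles of 0.31 and 0.49, beside 0.03 for all genes. In 46 of them (60.5%, beside 7.21% of all genes) every opn4 dko library was above every wild-type library, and in 0 of them below. 37 were higher at an unadjusted p below 0.05 with 6 libraries, where all genes had 1.94% higher. Without wild-type replicate 3 there were 26, beside 463 higher of 15773 genes. None passed the FDR of 0.05. The list took 3.79, 4.04 and 3.26% of the counts in opn4 dko, against 2.87, 2.92 and 2.8% in wild-type, so each opn4 dko library was above each wild-type library. RPL37 (ENSDARG00000034291), a large subunit protein and the member of lowest p, had 251, 326 and 229 CPM in opn4 dko, against 133, 165 and 173 in wild-type (log2 fold change 0.78, SE 0.20). RPLP0 (ENSDARG00000051783), the stalk protein of the large subunit, had 1811, 1678 and 1429.8 CPM in opn4 dko, against 1241, 1312 and 1125 in wild-type (log2 fold change 0.42, SE 0.16), and RPS2 (ENSDARG00000077291), of the small subunit, had 1532, 1573 and 1384 CPM in opn4 dko, against 1161, 1260.5 and 1303 in wild-type (log2 fold change 0.27, SE 0.15). All 3 were without overlap. RPLP1 (ENSDARG00000021864), also of the stalk, had the other sign, with 569, 679 and 553 CPM in opn4 dko, against 912, 612 and 658 in wild-type (log2 fold change -0.28, SE 0.19), with overlap. With actb1 library sizes the list median was 0.03, which is 0.33 above all genes on that scale, beside 0.38 above all genes with TMM. Members of such a list are measured in the same 6 libraries and are not replicates, and whether RNA quality or the makeup of the tissue moved them was not tested.

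Genes of energy metabolism had smaller positive medians, which were negative with actb1 library sizes. Nuclear genes of oxidative phosphorylation (84 tested, 0 called) had a median of 0.19 (0.14 without wild-type replicate 3). At an unadjusted p below 0.05, 2 were higher and 0 lower (1 and 0 without wild-type replicate 3). Of the 84, 64 were positive (76.2%, beside 53.0% of all genes). Without overlap, 17 were above (20.2%, beside 7.21% of all genes) and 0 below. ndufb3, a complex I subunit, had 61.7, 74.2 and 57.4 CPM in opn4 dko, against 35.6, 46.3 and 35.6 in wild-type (log2 fold change 0.72, SE 0.25), while ATP5F1A (ENSDARG00000010149), an ATP synthase subunit, had 987, 825 and 796 CPM in opn4 dko, against 730.1, 818 and 783 in wild-type, with overlap. Glycolysis genes (41 tested, 0 called) had a median of 0.15 (0.21 without wild-type replicate 3). At an unadjusted p below 0.05, 6 were higher and 0 lower (5 and 2 without wild-type replicate 3). Without overlap, 7 were above (17.1%, beside 7.21% of all genes) and 1 below (2.44%, beside 5.33%). ALDOC (ENSDARG00000019702), an aldolase, had 1205, 1321 and 1294 CPM in opn4 dko, against 968, 1149 and 1026 in wild-type (log2 fold change 0.28, SE 0.15), without overlap. With actb1 library sizes both list medians were negative, at -0.19 and -0.21, which is 0.12 and 0.10 above all genes on that scale. Collagens, the fibrous proteins of sclera and cornea, had a median of -0.26 (-0.32 without wild-type replicate 3) over 50 genes, and none was called. At an unadjusted p below 0.05, 0 were higher and 1 lower. Without wild-type replicate 3 there were 0 higher and 7 lower, beside 463 higher and 489 lower of 15773 genes. col1a1a had 902, 359 and 525 CPM in opn4 dko, against 1189.5, 841 and 471 in wild-type (log2 fold change -0.49, SE 0.36, and -0.77 without wild-type replicate 3), with overlap, and COL5A1 (ENSDARG00000012593) had 72.2, 52.63 and 65.5 CPM in opn4 dko, against 119.7, 103 and 63.6 in wild-type (log2 fold change -0.59, SE 0.26), where opn4 dko replicates 1 and 3 lay above wild-type replicate 3.

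Immune cell lists varied more among their members. Microglia and macrophage genes had a median of 0.61 (0.48 without wild-type replicate 3) over 26 members, and 0.27 with actb1 library sizes. Of the 26, 22 were positive (84.6%, beside 53.0% of all genes) and none passed the test. At an unadjusted p below 0.05, 1 was higher and 0 lower (2 and 0 without wild-type replicate 3). Without overlap, 2 were above (7.69%, beside 7.21% of all genes) and 0 below. Their summed share did not follow the genotype: it was 0.167, 0.256 and 0.15% of the counts in opn4 dko, against 0.249, 0.118 and 0.133% in wild-type, where the most abundant members weigh most. CORO1A (ENSDARG00000054610), a leukocyte actin regulator, had 26.3, 57.5 and 34.4 CPM in opn4 dko, against 24.4, 21.4 and 14.98 in wild-type (log2 fold change 0.95, SE 0.38), without overlap. The class II invariant chain gene cd74a had 796, 619 and 559.5 CPM in opn4 dko, against 1079, 564 and 556 in wild-type, with wild-type replicate 1 the highest, and MHC class II genes (13 tested) had a median of 0.27 (0.01 without wild-type replicate 3). In macrophage markers wild-type replicate 3 was uneven: csf1ra, a growth factor receptor, had 22.9, 32.2 and 25.6 CPM in opn4 dko, against 19.7, 15.8 and 0.936 in wild-type, and mpeg1.1, a perforin-like gene, had 13.7, 31.0 and 21.8 CPM in opn4 dko, against 16.8, 9.32 and 22.9 in wild-type. Inflammatory caspase and interferon genes (27 tested) had a median of 0.03 (0.10 without wild-type replicate 3), and lymphocyte and granulocyte genes, with 9 tested and few reads, of 0.60 (0.28 without wild-type replicate 3). ccl34b.1, a chemokine, had 6.40, 7.58 and 6.07 CPM in opn4 dko, against 0.882, 3.42 and 0 in wild-type (log2 fold change 2.15, SE 1.15), and the interferon-induced RNA sensor IFIH1 (ENSDARG00000018553) had 8.54, 10.3 and 11.6 CPM in opn4 dko, against 6.76, 1.24 and 0 in wild-type (log2 fold change 1.87, SE 1.06).

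No clock or melatonin gene passed the test. The 43 tested clock genes had a median of 0.02 (-0.01 without wild-type replicate 3), and 3 above and 3 below without overlap (6.98% each, beside 7.21% and 5.33% of all genes). At an unadjusted p below 0.05, 0 were higher and 3 lower with 6 libraries, where all genes had 1.94% higher and 2.34% lower. Without wild-type replicate 3 there were 0 and 1, beside 463 higher and 489 lower of 15773 genes. CRY1 (ENSDARG00000011583), a cryptochrome of the repressing arm of the clock, had 22.2, 44.4 and 37.2 CPM in opn4 dko, against 58.0, 70.5 and 79.6 in wild-type (log2 fold change -1.004, SE 0.30), with all opn4 dko libraries lower. cry4 had 30.1, 42.5 and 33.1 CPM in opn4 dko, against 28.5, 24.2 and 15.9 in wild-type (log2 fold change 0.61, SE 0.34), and BHLHE40 (ENSDARG00000004060), a transcriptional repressor, had 823, 1052 and 949.5 CPM in opn4 dko, against 625, 1090.2 and 1067 in wild-type (log2 fold change 0.02, SE 0.22, and 0.13 without wild-type replicate 3). Of 8 melatonin genes tested the median was -0.22 (-0.02 without wild-type replicate 3). aanat2, the acetyltransferase of the pathway, had 219.9, 130.3 and 128 CPM in opn4 dko, against 301, 108 and 125 in wild-type, and asmt, which makes melatonin in the last step, had 65.4, 77.4 and 71.3 CPM in opn4 dko, against 63.5, 74.2 and 67.9 in wild-type (log2 fold change 0.06, SE 0.21), both with overlap. mtnr1bb, a melatonin receptor, had 3.02, 8.503 and 3.79 CPM in opn4 dko, against 9.71, 9.94 and 22.5 in wild-type (log2 fold change -1.45, SE 0.69, and -0.95 without wild-type replicate 3), with all opn4 dko libraries lower. Immediate early genes, which neurons switch on with activity, had a median of -0.02 (-0.08 without wild-type replicate 3) over 20 members, and egr1 had 103, 86.6 and 149 CPM in opn4 dko, against 161, 137 and 128 in wild-type (log2 fold change -0.33, SE 0.23). Heat shock genes (29 tested) had a median of 0.09 (0.18 without wild-type replicate 3), and besides HSPA8 the chaperone HSP90AB1 (ENSDARG00000029150) had 1950.2, 1976 and 1872 CPM in opn4 dko, against 1708, 1673 and 1379 in wild-type, without overlap, while dnajb1a had 4.98, 7.58 and 10.1 CPM in opn4 dko, against 12.1, 22.1 and 24.8 in wild-type, lower in each opn4 dko library.

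Genes of tissues around the retina are given as measures of what each pool held, and their part in the other values was not tested. Extraocular muscle genes (28 tested, 0 called) had a median of 0.13 (-0.17 without wild-type replicate 3). At an unadjusted p below 0.05, 1 was higher and 2 lower (1 and 4 without wild-type replicate 3). They took 0.236, 0.282 and 0.19% of the counts in opn4 dko, against 0.252, 0.21 and 0.153% in wild-type. mb, myoglobin, had 411, 829.6 and 426 CPM in opn4 dko, against 280.0, 282 and 273 in wild-type (log2 fold change 1.00, SE 0.26), without overlap, and TNNI2 (ENSDARG00000005841), a fast muscle troponin, had 37.9, 27.12 and 35.4 CPM in opn4 dko, against 71.8, 52.5 and 41.6 in wild-type (log2 fold change -0.73, SE 0.29), without overlap in the other direction. Corneal and surface genes (17 tested, 0 called) had a median of 0.15 (0.03 without wild-type replicate 3), with 12 positive (70.6%, beside 53.0% of all genes). At an unadjusted p below 0.05, 0 were higher and 2 lower (0 and 4 without wild-type replicate 3). cldnb, a claudin gene, had 61.9, 80.9 and 76.1 CPM in opn4 dko, against 61.8, 55.0 and 24.8 in wild-type (log2 fold change 0.62, SE 0.32, and 0.32 without wild-type replicate 3), with all opn4 dko libraries higher. epcam, an epithelial adhesion molecule, had 90.3, 93.8 and 92.8 CPM in opn4 dko, against 217, 123 and 162 in wild-type (log2 fold change -0.86, SE 0.23), with all opn4 dko libraries lower, and krt5 had 9559.8, 7235 and 7135 CPM in opn4 dko, against 7118, 8377 and 4951 in wild-type, with overlap. Red blood cell genes (7 tested) had a median of -0.04 (-0.27 without wild-type replicate 3), and the globin gene hbaa1 had 131, 172 and 89.5 CPM in opn4 dko, against 331, 127 and 134 in wild-type, with wild-type replicate 1 the highest. Endothelial and pericyte genes had a median of -0.03 (-0.01 without wild-type replicate 3), and myelin genes of -0.05 (-0.18 without wild-type replicate 3). Replication and cell cycle genes (18 tested) had a median of -0.17 (0.09 without wild-type replicate 3), and PCNA (ENSDARG00000054155), the sliding clamp, had 61.3, 39.8 and 57.9 CPM in opn4 dko, against 55.9, 50.9 and 76.8 in wild-type. In the cAMP list, apart from prkacbb, ADCY2 (ENSDARG00000058392), an adenylyl cyclase, had 8.89, 8.04 and 7.08 CPM in opn4 dko, against 19.7, 17.4 and 25.3 in wild-type (log2 fold change -1.37, SE 0.45), without overlap, and prkacaa, a further catalytic subunit of the kinase, had 145, 173 and 194 CPM in opn4 dko, against 177, 134 and 172 in wild-type, with overlap. Of 33 lists with tested members, all but those of rods and of MHC class I held no called gene. The medians had the other sign without wild-type replicate 3 in 6 lists, with upper quartile scaling in 2 and with actb1 library sizes in 14, and relative to all genes actb1 library sizes moved no list median by more than 0.155.

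**Figure D5:**
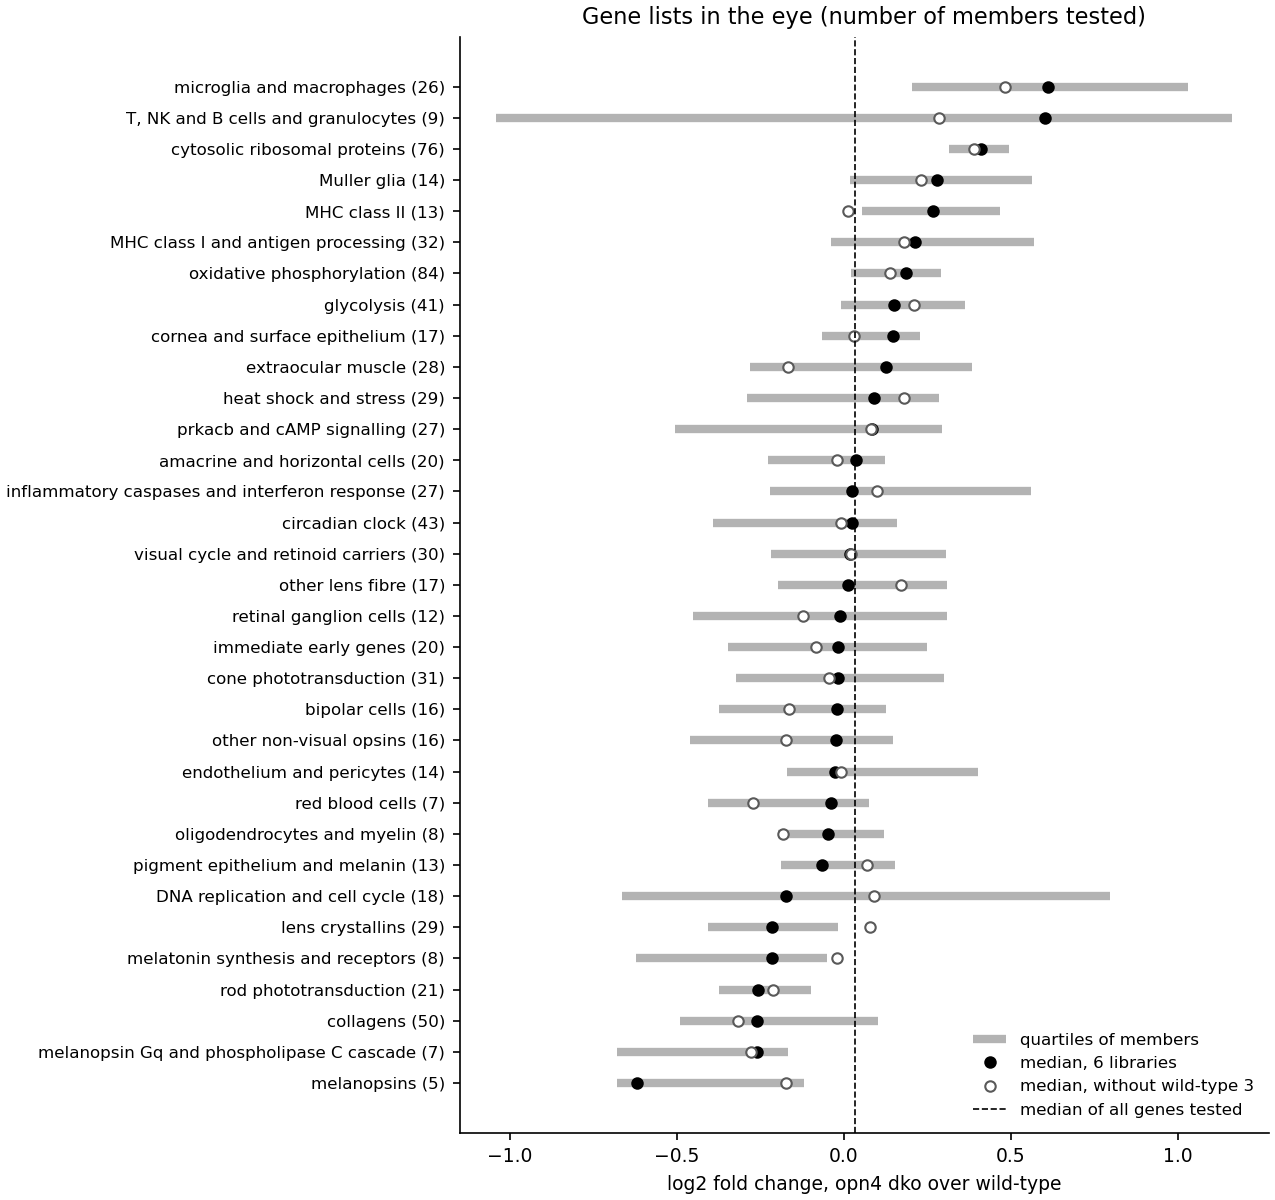
Median log2 fold change of opn4 dko over wild-type (x axis) for each list of genes (y axis, number of members tested in parentheses), with all 6 libraries (filled) and without wild-type replicate 3 (open). Grey bars run between the quartiles of the members and the dashed line is the median of all genes, 0.03. Ribosomal proteins (0.41) have the narrowest bar, and crystallins (-0.21 and 0.08) change sign without that library.

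The 15 genes that took the most reads in these CPM units, which depends on transcript length as well as on level, included genes of photoreceptors and of the lens, and none passed the test. zgc:158463 had 7959.9, 22688 and 13182 CPM in opn4 dko, against 7075, 9254 and 9225 in wild-type (log2 fold change 0.78, SE 0.31), with opn4 dko replicate 2 far above the others. si:dkey-238c7.12, whose clone-based name it shares with the si:dkey-238c7.13 described above, had 4003, 5882 and 4148 CPM in opn4 dko, against 2674, 3838 and 3103 in wild-type (log2 fold change 0.55, SE 0.20), without overlap. malat1, a nuclear non-coding RNA, had 4732, 5656 and 5710.1 CPM in opn4 dko, against 5935, 6828 and 6337 in wild-type (log2 fold change -0.25, SE 0.15), with all opn4 dko libraries lower. actb2 had 6135, 5528 and 4604 CPM in opn4 dko, against 5135, 4304 and 3993 in wild-type, and CKB (ENSDARG00000043257), a creatine kinase, 6443, 5589 and 6426 CPM in opn4 dko, against 4698, 7253 and 7319 in wild-type, both with overlap. rbp4l, a retinol-binding protein gene, had 4322, 5532 and 4486 CPM in opn4 dko, against 3528, 5402 and 4826 in wild-type (log2 fold change 0.06, SE 0.19), and the crystallins CRYBB3 (ENSDARG00000041301), CRYBA1 (ENSDARG00000041141) and crygm3 had log2 fold changes of -0.18, -0.32 and -0.42, or 0.06, -0.06 and -0.11 without wild-type replicate 3.

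Whether the effect of the genotype in the eye differed from that in the brain was tested with an interaction term over the 18 libraries (edgeR quasi-likelihood test with Benjamini-Hochberg adjustment). In the anterior brain mhc1uba had 3532, 1548 and 1900 reads in opn4 dko, against 8, 15 and 5 in wild-type, and in the posterior brain it had 2984, 2154 and 2341 reads in opn4 dko, against 8, 15 and 12 in wild-type. Its log2 fold change in the eye differed from that in the anterior brain by -0.84 (SE 0.34, FDR = 0.743) and from that in the posterior brain by -0.64 (SE 0.33, FDR = 0.873, edgeR). For si:ch211-63p21.1 the differences were 0.12 (SE 0.30) and 0.06 (SE 0.30), and neither passed the test. For si:dkeyp-1h4.8 the anterior brain had 0, 0 and 0 reads in opn4 dko, against 1, 4 and 9 in wild-type, and the posterior brain 0, 0 and 0 reads in opn4 dko, against 0, 4 and 0 in wild-type, too few to compare. pde6gb differed. In the anterior brain it had 255, 127 and 63 reads in opn4 dko, against 10, 18 and 9 in wild-type (difference -5.26, SE 0.48, FDR = 2.42e-06, edgeR), so that it was lower in the opn4 dko eye and higher in the opn4 dko anterior brain. In the posterior brain it had 38, 32 and 15 reads in opn4 dko, against 16, 10 and 24 in wild-type (difference -2.45, SE 0.51, FDR = 0.128, edgeR). Over all 18630 genes in that fit, 64 (0.344%) had an effect in the eye that differed from the anterior brain, 60 of them with the lower value in the eye (0.322%). Of the 60 that were also tested in the eye alone, 49 had an absolute log2 fold change below 0.5 there and only pde6gb was called. Of the 51 rod or cone list genes in the fit of 18 libraries, 19 were among the 64, beside 0.344% of all genes. Against the posterior brain 0 genes passed (0%), with 1091 at an unadjusted p below 0.05, and 0 passed with RLE size factors, but 9 without wild-type replicate 1 of the eye, 1 without wild-type replicate 2, and 2 with at least 10 counts required in every eye library.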

How the data were processed

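RNA was measured by sequencing polyadenylated transcripts of pooled eyes. The authors deposited a table of raw counts for 31624 genes in 18 libraries. According to the study's methods and the processing notes, single reads of 100 bases were aligned to GRCz10, and featureCounts assigned reads with a mapping quality of at least 20 to genes of Ensembl release 86, introns included, with strand. The deposited commands name HISAT and the methods NextGenMap, so the aligner is not settled, and a gene of low mappability could have other counts under either. The authors tested their counts with edgeR 3.9. The replicates are separate pools of 3 fish.

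From the counts of the 6 eye libraries, genes were kept with filterByExpr (minimum count 10, minimum total 15), scaled with TMM and tested with the edgeR 4.0.16 quasi-likelihood test in R 4.3.3, with Benjamini-Hochberg adjustment over all genes tested and an FDR of 0.05. Log2 fold changes are opn4 dko over wild-type (prior count 0.125), and the SE is the size of the log2 fold change divided by the square root of F. DESeq2 1.42.0, limma 3.58.1 and other scalings, filters, thresholds and left-out libraries were alternatives. Eye and brain effects were compared in 6 groups of 3 libraries. Fits were tested on simulated counts with the same spread for all genes and no library like wild-type replicate 3, so that test does not cover its effect. Intervals cover counting error only. The eye libraries were small (2186877 to 5717878 counts), which limits what could be called among genes of low level.

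The comparison, the members of the gene lists and the tests were chosen with earlier results of these data known. Genes were named if called by this test, the exact test, DESeq2 or the fit of 18 libraries, if among the 12 of lowest p in each direction without overlap, if melanopsins, if the most abundant or of lowest p in a list, if among the 15 with most reads, or if among the 10 with most reads elsewhere and none in wild-type replicate 3. Neighbours of mhc1uba and cell type markers were named besides. Symbols, from the study's gene lists or a gene name table, were found for 82.7% of genes. Fold changes and p-values of the authors were not used. No genome was used, and sequences were not analysed here. Some genes are not reported here.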

Additional observations from a re-analysis of the deposited data

Results flagged for a closer look

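The difference itself was tested with the edgeR quasi-likelihood interaction and Benjamini-Hochberg adjustment. Of the 191 named genes, 15 had a genotype effect in the eye that differed from that in the anterior brain. Over all 18630 genes in that fit, 64 did (0.344%). Named genes were partly chosen by tests on the same libraries, so the count of 15 is only a description. The values are the log2 fold change of opn4 dko over wild-type in the eye minus that in the anterior brain. Groups of 3 libraries were too small for a test of single libraries.

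Apart from cbln12, given below, 11 of these genes had a negative difference and a positive log2 fold change in the anterior brain. It was -5.26 for pde6gb, -6.79 for gnat1, -6.01 for arr3a, -7.96 for guca1a and -3.09 for lrit1b, genes of photoreceptors. It was -3.27 for rpe65a, -3.55 for rbp3 and -8.82 for rbp4l, genes of retinoid handling. It was -5.67 for asmt, -5.44 for ly6pge and -2.80 for SLC4A4. In the anterior brain, gnat1 had 505, 213 and 77 reads in opn4 dko, against 4, 0 and 2 in wild-type, and asmt, of melatonin synthesis, had 536, 281 and 158 reads in opn4 dko, against 3, 7 and 6 in wild-type. Wild-type anterior brains held 0, 0 and 0 reads of guca1a, 1, 1 and 1 of rbp4l and 1, 1 and 6 of arr3a. They held 2, 1 and 0 reads of ly6pge. With so few wild-type reads, the sizes of these differences, and of that for gnat1, depend on the prior count. These 11 were picked by a test on the same anterior brain reads, so the higher opn4 dko reads there are not a separate result. In the eye only pde6gb passed the test. For SLC4A4 the anterior brain had 140, 50 and 23 reads in opn4 dko, against 2, 24 and 20 in wild-type. Its effect in the anterior brain alone did not pass the test (FDR = 0.173, edgeR quasi-likelihood test). What made the anterior brain libraries differ was not tested.

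For CPNE2 the difference was 2.37, with 55, 46 and 32 reads in opn4 dko eyes, against 4, 12 and 0 in wild-type eyes. In the eye alone its log2 fold change was 2.46 (SE 1.05, FDR = 0.993, edgeR quasi-likelihood test). That value was 1.945 without wild-type replicate 3, the library with 0 reads. For EOMES the difference was 4.63, for prr7 6.55 and for cbln12 -6.31, genes with at most 49 reads in any eye library. Their fitted values depend on the prior count. CPNE2 and EOMES were named because the fit of all 18 libraries called their eye effect, so their eye reads are not a separate result.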

How the results depend on the processing

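The number of genes called depended on the test, the filter and the scaling. Against 4 calls (1 higher and 3 lower), the edgeR exact test gave 18 (6 and 12), DESeq2 30 (12 and 18), the filter and exact test of the deposited code 16 (6 and 10), the fit of all 18 libraries 34 (14 and 20), library sizes from actb1 17 (5 and 12) and every gene with a count 16 (7 and 9). Upper quartile scaling called 5 genes (2 higher) and a minimum of 10 counts in every library 5 (3 higher). RLE size factors, a prior count of 2 and limma voom with quality weights each gave 4. Leaving out 1 library gave 2 to 8 calls, 1 to 4 of them higher and 1 to 4 lower, with the most without wild-type replicate 3. Actb1 library sizes moved the median of all genes to -0.31.

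Deviations from the genotype mean of libraries with the same replicate number correlated at 0.04, -0.01 and 0.04. The outlying wild-type library weighs on the mean of its genotype, so these values cannot settle whether the numbers pair the libraries. A replicate block gave 5 calls (1 higher and 4 lower), 61 genes against the anterior brain and 0 against the posterior.

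Against the anterior brain, 30 of 64 genes passed an FDR of 0.01, and leaving out 1 eye library gave 53 to 90. Against the posterior brain, 2 genes passed with at least 10 counts in every eye library, and 0 to 9 with 1 eye library left out. Wild-type replicate 3 held 76.8% of the genes of the next lowest eye library, or 82.7% when detection needed 10 counts.

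Of 79 genes recomputed, 74 kept their direction in every alternative. None of the 5 that did not was called. gna11b was at -0.12 with actb1 library sizes and opn4b at 0.27 with limma quality weights. With 1 library left out, opn4.1 lay between -0.27 and 0.13, opn4a between -1.18 and 0.36, opn4b between -0.35 and 0.30, and opn4xa between -1.40 and 0.053. The causes were not tested. Of 363 list medians recomputed, 46 moved by more than the spread, 24 of them with actb1 library sizes and 4 without wild-type replicate 3.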
